A study of Mus musculus with 2 samples.

Results

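Blood vessel endothelial cells are described here from single-cell RNA sequencing of the stromal vascular fraction (SVF), the cells left when adipocytes are removed, of gonadal white adipose tissue (gWAT). The cells were selected on their own measured RNA. A barcode needed 500 or more detected genes, with no more than 10% of its unique molecular identifiers (UMIs, each standing for 1 captured RNA molecule) coming from mitochondrial genes. It then had to hold at least 4 UMIs of Pecam1, Cdh5, Flt1 and Egfl7 together and at least 1 of Cdh5 or Flt1. It was left out with more than 1 UMI of the lymphatic genes Prox1, Mmrn1 and Ccl21a together, with any UMI of the leukocyte gene Ptprc, or with 10 or more UMIs of the fibroblast gene Dcn. This gave 193 cells of 4839 filtered barcodes, out of 11252 barcodes in all. In the control library 142 of 3881 filtered barcodes passed, or 3.66% (exact binomial 95% interval 3.09% to 4.30%). In the library from adipose tissue-specific Pgam1 knockout (Adipo-Pgam1 KO) mice 51 of 958 passed, or 5.32% (exact binomial 95% interval 3.99% to 6.94%). Both libraries came from male C57BL/6 mice 13 weeks of age. The control is labelled as littermate wildtype, while the study's methods give littermate controls as mice with floxed Pgam1 and no Cre. The knockout carried floxed Pgam1, which encodes the glycolytic enzyme phosphoglycerate mutase, with a Cre driven by the promoter of adiponectin, a gene of adipocytes. There was 1 library per group, and the number of mice behind each is not given in the sources used here. All intervals below cover counting error only, differences between animals were not measured, and no p-value is given.

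Endothelial cells line blood vessels and differ along the vessel. Arterial cells carry Notch ligands, Notch target genes and gap junction proteins of the connexin family, venous cells carry leukocyte adhesion molecules such as P-selectin, and capillary cells of adipose tissue and muscle carry the machinery that passes fatty acids from blood to tissue. In that machinery GPIHBP1 holds lipoprotein lipase on the capillary wall, CD36 takes up fatty acids, and fatty acid binding proteins carry them through the cell.

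The targeted gene was measured first. Pgam1 (chromosome 19, 41911923 to 41918660, GRCm38) gave 78 and 25 UMIs in control and KO endothelial cells, or 89.6 and 69.8 UMIs per 1000000 UMIs of these cells (CPM). The log2 ratio of KO to control CPM was -0.36 with a 95% interval of -1.07 to 0.31, which holds 0. The muscle isoform gene Pgam2 gave 0 and 1 UMIs.

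The markers of the cell type were present in both libraries. Cdh5 (VE-cadherin, the adhesion molecule of endothelial junctions) and Flt1 (a VEGF receptor) were used in the selection, so their levels are no finding. Gpihbp1 was at 609.7 and 1336 CPM in control and KO cells, Rbp7 at 524 and 714, Aqp1 at 1220.5 and 2379.9 and Plvap at 569 and 882, none of which took part in the selection. Gpihbp1 was at 0.583 and 0.368 CPM and Rbp7 at 0.292 and 0.368 CPM in the fibroblasts of the same libraries. At least 1 UMI of Gpihbp1 was held by 50.7% of the control endothelial cells and 54.9% of those of the KO, against 0.664% and 0.476% of fibroblasts, with median depths of 5068.5 and 6854 UMIs per endothelial cell and 11730.5 and 13818.5 per fibroblast. Lymphatic endothelial cells shared some of these markers, with Gpihbp1 at 520.3 and 277 CPM but Rbp7 at 12.5 and 11.1 CPM. Prox1, which defines lymphatic cells, gave 0 and 2 UMIs in the blood vessel cells, against 1100.2 and 877 CPM in the lymphatic cells. Prox1 was limited in the first and used to choose the second, so this contrast is no finding. The cell kinds were chosen by separate marker rules. The mural rule also fitted 12 control cells and 1 KO cell of the blood vessel set, and the macrophage rule 1 control cell. These cells were kept in the blood vessel set only.

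**Figure D1:**
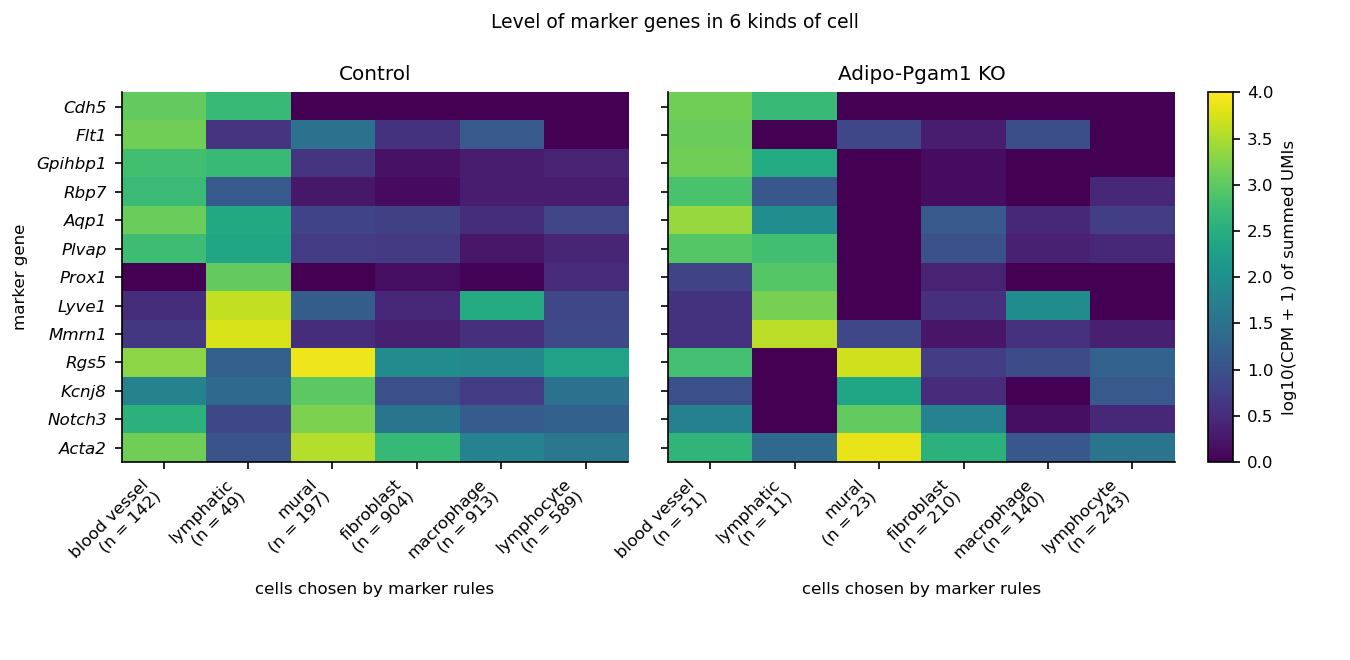
Level of marker genes as log10(CPM + 1) of summed UMIs (colour) in 6 kinds of cell, each chosen by marker genes, in the control (left) and Adipo-Pgam1 KO (right) library, with the number of cells beside each kind. The 6 genes from Cdh5 to Plvap are high in the blood vessel cells and low in fibroblasts, macrophages and lymphocytes, and the mural genes Rgs5 and Acta2 are also held by the blood vessel cells, more so in the control. Cells with Cdh5 were left out of the fibroblasts, macrophages and lymphocytes by their rules, and cells with Flt1 out of the lymphocytes.

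Some of the control cells went against the label. Of 8 marker genes of mural cells, the pericytes and smooth muscle cells that wrap vessels, at least 4 were found in 21 of the 142 control cells and in 1 of the 51 KO cells. Of those 21 control cells 6 held Cdh5 and 8 held Pecam1, and their 4 selection genes summed to a median of 6 UMIs, against 24 in the other 121. The KO cell held neither gene. The summed mural markers were at 5471 and 1984 CPM in control and KO cells, with 8 of 8 detected in each, and at 355 and 279.7 CPM without those cells, when Cspg4 was at 0 in the control and Pdgfrb and Notch3 were at 0 in the KO. The main comparisons below are therefore also given without them, on 121 control and 50 KO cells, a step chosen after the data were seen. With all other criteria met, 8 control cells and 1 KO cell held exactly 4 UMIs of the selection genes, just inside the limit, and Gpihbp1 was at 18.1 CPM in those control cells. Just outside, 7 control cells and 0 KO cells held exactly 3, with Gpihbp1 at 142 CPM in the control.

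RNA of other cells also differed between the libraries within these cells. Haemoglobin genes were at 5054 and 1342 CPM in control and KO cells. Macrophage markers summed to 232 and 50.2 CPM, with 6 of 6 detected in each, and fibroblast markers to 1347 and 516 CPM, with 7 of 7 detected in each. Without the cells carrying mural genes, fibroblast markers were at 336 and 253 CPM, macrophage markers at 292 and 47.1 CPM and haemoglobin genes at 6343 and 1378 CPM. Lymphatic markers summed to 63.1 and 55.8 CPM, with 6 of 7 detected in each library. The selection limited Prox1, Mmrn1 and Ccl21a among them, as it did Dcn among the fibroblast markers. Lymphocyte markers gave 2 and 1 UMIs, mesothelial markers 12 and 1, Schwann cell markers 8 and 1, and adipocyte markers 10 in each library, with Adipoq at 0 in the control and Plin1 and Lep at 0 in the KO. The transcript Gm42418, which overlaps ribosomal RNA, took 2.76% of UMIs in control and 6.61% in KO cells, and mitochondrial genes took 5.69% and 5.45%. Summed over cells, the control gave 870973 UMIs and the KO 358422. The libraries shared 9 cell barcodes, 1 of them among the endothelial cells of each. The part of these differences in the results below was not tested.

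Against all other filtered cells of the control library, the genes that led in the endothelial cells were the transcription factor gene Sox17 (361 CPM, 138-fold above the other cells), the secreted C1q family gene C1qtnf9 (204 CPM, 122-fold above the other cells), the aquaglyceroporin gene Aqp7 (272 CPM, 115-fold above the other cells) and the apelin receptor gene Aplnr (179 CPM, 97.9-fold above the other cells). The first 20 also held the phosphatase gene Ptprb, the guidance receptor gene Robo4 and the Notch ligand gene Dll1. They held the arterial genes Gja5, Sema3g and Mecom and, of the capillary list, Rbp7 and Aqp1. Cyyr1, Adgrl4, Mmrn2, Pcdh17, Gkn3 and Arhgef15 were there too, beside Flt1 and Cdh5, which the selection used. All 20 were at least 2-fold above the other cells in the KO library too. These ranks describe the cells and are no test, because the selection genes mark the same cells.

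The cells were next split by their capillary, arterial and venous genes. Each cell was given to the list, capillary, arterial or venous, that held the most of its UMIs, counting the members found in at most 70% of control cells, which left out Fabp4, Cd36 and Cxcl12. This split was added after the data were seen, and its classes are ranges rather than cell types. Without the cells carrying mural genes it gave 61 capillary, 55 arterial and 2 venous control cells, with 3 unplaced, and 32 capillary, 14 arterial and 4 venous KO cells. In 12 control and 4 KO cells the leading list was ahead by at most 2 UMIs. Arterial genes summed to 9505 CPM in the arterial and 1289 CPM in the capillary control cells, and to 8619.8 and 892 CPM in those of the KO. Capillary genes summed to 3305 and 8887 CPM in the arterial and capillary control cells, and to 1150.2 and 12129 CPM in those of the KO. The classes were set by these same lists, so a higher sum of a list in its own class follows from the split and is no finding. Since the split used genes that differ between the libraries, the class sizes are not compared.

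**Figure D2:**
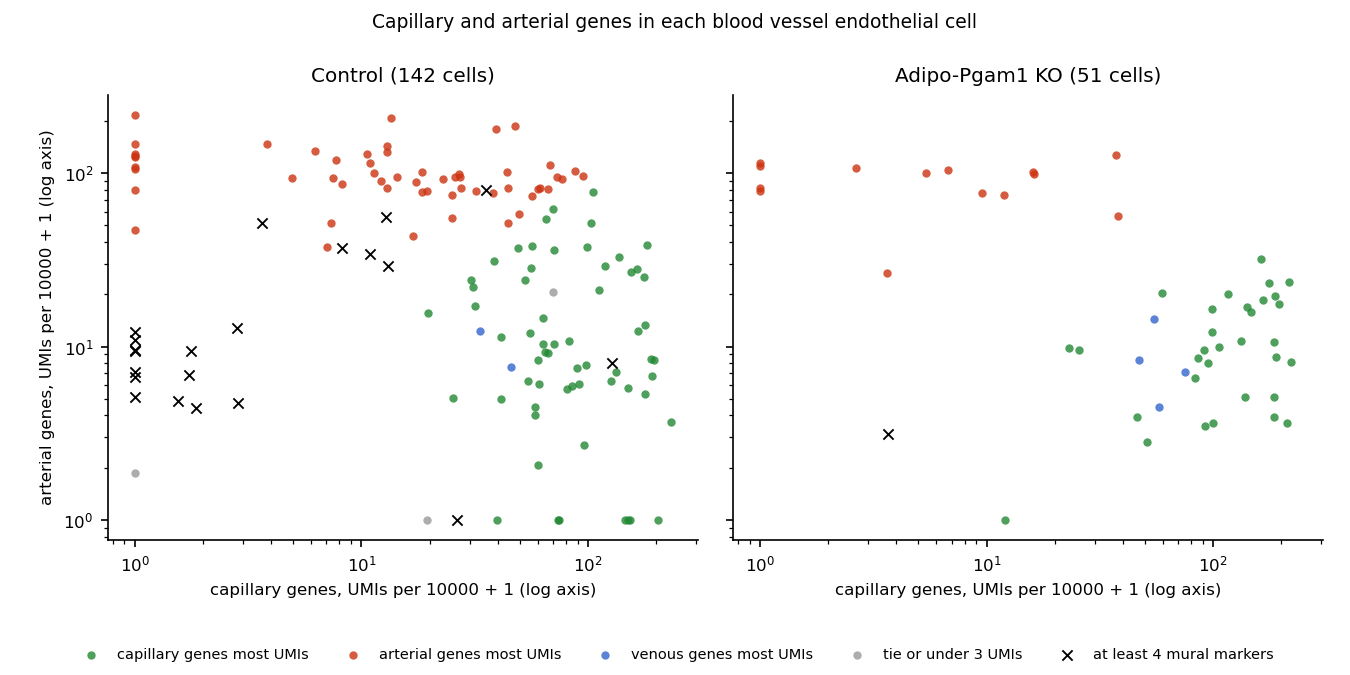
UMIs of capillary (horizontal) and arterial (vertical) genes per 10000 UMIs plus 1, on log axes, in each of 142 control (left) and 51 KO (right) cells. Colours give the list with the most UMIs, and crosses the 21 control cells and 1 KO cell with at least 4 mural markers, and most cells high in arterial genes lie to the left of the cells high in capillary genes.

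Genes outside the 3 lists followed the same split in both libraries. The 10 genes that ranked highest in arterial over capillary control cells were Igf2 (240 UMIs in arterial and 3 in capillary cells), Gkn3 (140 and 0), the phosphatase gene Alpl, Cytl1, the matrix genes Fn1, Col8a1 and Col5a2, the calcium pump gene Atp2a3, the G protein-coupled estrogen receptor gene Gper1 and Serpinf1. In KO cells 10 of these 10 were on the same side, with Igf2 at 133 and 0 UMIs and Gkn3 at 53 and 0. The 10 highest on the capillary side were Itih5 (165 UMIs in capillary and 3 in arterial cells), Aplnr (140 and 0), the semaphorin and VEGF coreceptor gene Nrp2 (130 and 1), Col15a1, Fmo2, Rasa4, Fmo1, Arhgap18, Pltp and Tmsb10. In KO cells 10 of these 10 were on the same side, and Nrp2 gave 111 UMIs in capillary and 0 in arterial cells.

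A second split, by the number of genes detected, did not separate the cells, since most held genes of several lists. UMIs of 2 or more of the 16 capillary genes were held by 94.4% (89.2% to 97.5%) of the control and 94.1% (83.8% to 98.8%) of the KO cells. UMIs of 2 or more of the 14 arterial genes were held by 90.1% (84.0% to 94.5%) of the control cells and 96.1% (86.5% to 99.5%) of the KO cells, and UMIs of 2 or more of the 10 venous genes by 52.8% (44.3% to 61.2%) and 58.8% (44.2% to 72.4%). With every cell thinned to 2000 UMIs, which left out 20 control and 9 KO cells, the capillary shares were 91.0% and 100%, the arterial shares 74.6% and 71.4% and the venous shares 41.0% and 40.5%. In thinned cells 3 or more arterial genes were held by 64.8% (55.6% to 73.2%) in the control and 40.5% (25.6% to 56.7%) in the KO. Cells with at least 2 arterial and fewer than 2 venous genes numbered 60 in the control, 8 of them with mural genes, and 20 in the KO, and the converse cells 7 and 1. The 10 genes that ranked highest on the venous side of that split in the control, with counts under 3 UMIs raised to 3, included Plvap, Cxcl9, Ndufa8, Slc43a3, Zbtb46, Sox4, Cxx1a, Eif1b and Ccnd1, and the 10 on the arterial side were Adamts1, Slc6a6, Igfbp4, Igfbp3, Meg3, Cald1, Clu, Mgp, S100a6 and Heg1. The venous side rested on 7 control cells, and the KO, with a single cell there, was not compared.

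Across all genes the libraries differed in both directions. Of 4403 genes with at least 50 UMIs over both libraries, 75 were at least 2-fold higher in KO cells, 1.7% of those counted, and 254 at least 2-fold lower, 5.77%. The interval of the ratio lay above 0 for 332 genes (7.54%) and below 0 for 580 (13.2%), and the median log2 ratio was -0.092. Without the cells carrying mural genes 3671 genes were counted, 45 at least 2-fold higher (1.23%) and 147 lower (4%). Their intervals lay above 0 for 231 (6.29%) and below 0 for 463 (12.6%), with a median of -0.11. In the capillary cells alone 2137 genes were counted, with intervals above 0 for 7.39% and below 0 for 11.8%. In the arterial cells alone 1251 genes were counted, with 6.63% above 0 and 12.3% below. These percentages are the background for the counts of list members that follow. In what follows a gene counts as higher or lower in KO than in control cells where its interval is clear of 0, a pair of values gives control first, and values in parentheses are the log2 ratio and its interval.

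Capillary genes were mostly higher in the KO cells. Of 16 listed genes, all with at least 50 UMIs, 12 had an interval above 0 and 0 an interval below it, against 7.54% and 13.2% of all genes, and their median log2 ratio was 0.55 against -0.092. Without the cells carrying mural genes the counts were 9 higher and 1 lower of 16 and the median was 0.37. Gpihbp1 (chromosome 15, 75596628 to 75599481, plus strand) gave 531 and 479 UMIs in control and KO cells, or 609.7 and 1336 CPM (1.13, 0.95 to 1.31), and a ratio of 0.92 (0.74 to 1.11) without the mural cells. Car4 (carbonic anhydrase 4, a surface enzyme of capillaries; chromosome 11, 84957786 to 84966044) was at 59.7 and 285 CPM (2.25, 1.76 to 2.76) and was held by 17 control and 18 KO cells, and by 1.44% and 0.476% of fibroblasts. No single cell carried the difference in Car4, since the highest held 14 of the 52 control UMIs and 18 of the 102 KO UMIs.

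Other capillary genes were higher by less than Car4. The butyrophilin-like gene Btnl9 was at 313 and 689 CPM (1.14, 0.88 to 1.39), the water channel gene Aqp1 at 1220.5 and 2379.9 CPM (0.96, 0.83 to 1.09) and Rgcc at 239 and 469 CPM (0.97, 0.67 to 1.27). Fabp4 was at 16661 and 26700.4 CPM (0.68, 0.64 to 0.72), the metalloproteinase inhibitor gene Timp4 at 222 and 352 CPM (0.67, 0.33 to 1.0), the receptor-like gene Cd300lg at 346 and 538 CPM (0.64, 0.37 to 0.91) and Cd36 at 2709.6 and 3501 CPM (0.37, 0.27 to 0.47). Rbp7, a retinol binding protein gene, was at 524 and 714 CPM (0.45, 0.22 to 0.67), but its ratio was 0.17 (-0.057 to 0.39) without the mural cells and -0.077 in cells with at most 5% mitochondrial UMIs. Control UMIs of Rbp7 were 310 in the arterial and 139 in the capillary cells, and those of Btnl9 134 and 122, against the name of the list. Gpihbp1 (108 and 388), Cd36 (464 and 1493) and Fabp4 (3548 and 8899) went with it. The arterial control cells held 280174 UMIs in all and the capillary ones 351414. The intervals of the transcription factor genes Tcf15 (0.17, -0.16 to 0.48) and Meox2 (-0.32, -0.76 to 0.10) held 0, and without the mural cells Meox2 was lower (-0.68, -1.13 to -0.24). Among the capillary cells alone the log2 ratios were 0.89 for Gpihbp1, 2.04 for Car4, 1.57 for Btnl9, 0.53 for Rgcc, 0.59 for Fabp4 and 0.13 for Aqp1. Among the arterial cells the capillary list went the other way, with 0 higher and 7 lower of 9 counted and a median of -0.91. Both classes were set with 14 of the 16 genes, and the difference between them was not tested.

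Arterial genes were lower in the KO cells, most of all the Notch target Hey1. All 14 listed genes had at least 50 UMIs and a ratio below 0. The interval lay below 0 for 11 and above it for 0, against 13.2% and 7.54% of all genes, and the median log2 ratio was -0.54. Without the mural cells it lay below 0 for 12 and the median was -0.76. Hey1, a transcriptional repressor and Notch target (chromosome 3, 8663359 to 8667256, minus strand), gave 153 and 15 UMIs, or 176 and 41.9 CPM (-2.07, -2.94 to -1.30). The connexin 37 gene Gja4 (chromosome 4, 127311421 to 127314039) was at 164 and 53.0 CPM (-1.63, -2.40 to -0.94) and the Notch ligand gene Jag1 at 286 and 94.9 CPM (-1.59, -2.15 to -1.07). These 3 genes were the only members at least 2-fold lower in all cells, and without the mural cells Sox17 (-1.06, -1.45 to -0.69) and Efnb2 (-1.05, -1.46 to -0.65) were too. Sox17 was at 361 and 209 CPM (-0.78, -1.17 to -0.42), the ephrin gene Efnb2 at 311 and 181 CPM (-0.78, -1.19 to -0.38) and the connexin 40 gene Gja5 at 381 and 259 CPM (-0.55, -0.90 to -0.22). Without the mural cells and with every cell thinned to 2000 UMIs, UMIs of Hey1 were held by 25 of 101 control cells (24.8%, 16.7% to 34.3%) and 1 of 41 KO cells (2.44%, 0.0617% to 12.9%). In fibroblasts, at their full depth, the shares were 1.44% and 2.86%. Gja4 was lower in mural cells too (-1.36, -2.10 to -0.69), and its interval held 0 in lymphatic endothelial cells (-0.70, -1.99 to 0.40).

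Sema3g, Fbln5 and Cxcl12, the members with the highest control counts, were lower by less in all cells. The semaphorin gene Sema3g was at 668 and 530.1 CPM (-0.33, -0.58 to -0.10), the elastic fibre gene Fbln5 at 688 and 530.1 CPM (-0.38, -0.62 to -0.14) and the chemokine gene Cxcl12 at 941 and 703 CPM (-0.42, -0.63 to -0.22). The intervals of Bmx (-0.49, -1.36 to 0.31), Dll4 (-0.34, -0.83 to 0.12) and Unc5b (-0.53, -1.50 to 0.35) held 0. Among the arterial cells alone, 55 in the control and 14 in the KO, the log2 ratios of Gja5 (0.11), Sema3g (0.12), Fbln5 (0.17) and Stmn2 (-0.006) were near 0, and 6 of 13 counted genes were lower and 0 higher. The lower ones were Cxcl12, which took no part in setting the classes (165 and 11 UMIs; -2.05, -3.08 to -1.17), Hey1 (-1.34), Gja4 (-0.91), Efnb2 (-0.73), Mecom (-0.67) and Sox17 (-0.54). In sums over all cells, fewer arterial cells and less RNA in each of them cannot be told apart. Of the 14 arterial KO cells 1 had at most 5% mitochondrial UMIs, against 17 of the 55 in the control, and with that limit the median of the arterial list was -2.09. The median mitochondrial share was 8.01% in the arterial KO cells and 6.05% in the arterial control cells.

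Of 10 listed venous genes 8 had at least 50 UMIs, 5 of them with an interval above 0 and 0 below it. The median log2 ratio over the 10 was 1.0, and 0.72 without the mural cells, where the counts were 5 higher and 0 lower of 8. Lrg1, which encodes a secreted glycoprotein, was at 159.6 and 591 CPM (1.89, 1.57 to 2.21) and was found in 27 control and 17 KO cells. In lymphatic endothelial cells its ratio was 1.51 (1.1 to 1.92). The P-selectin gene Selp was at 102 and 218 CPM (1.09, 0.63 to 1.55), the von Willebrand factor gene Vwf at 327 and 653 CPM (1.0, 0.74 to 1.25) and the cyclooxygenase 1 gene Ptgs1 at 78.1 and 170.2 CPM (1.12, 0.60 to 1.64). Selp turned to -0.60 when cells with UMIs of at least 2 marker genes of another class were left out. Among the capillary cells the ratios of Selp (0.093), Vwf (0.10) and Ptgs1 (0.14) were near 0 and that of Lrg1 was 0.74. The venous list there counted 1 higher and 1 lower of 8, with a median of 0.096. The 4 venous KO cells held 65, 133, 85 and 59 UMIs of venous genes, and a capillary KO cell held 115. The transcription factor gene Nr2f2 was at 405 and 357 CPM (-0.18, -0.49 to 0.11) in all cells but at 192 and 315 CPM (0.71, 0.33 to 1.09) without the mural cells. The E-selectin gene Sele gave 1 and 17 UMIs, with all 17 of the KO in 1 cell, and the chemokine receptor gene Ackr1 gave 23 and 19 (1.01, 0.048 to 1.95).

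**Figure D3:**
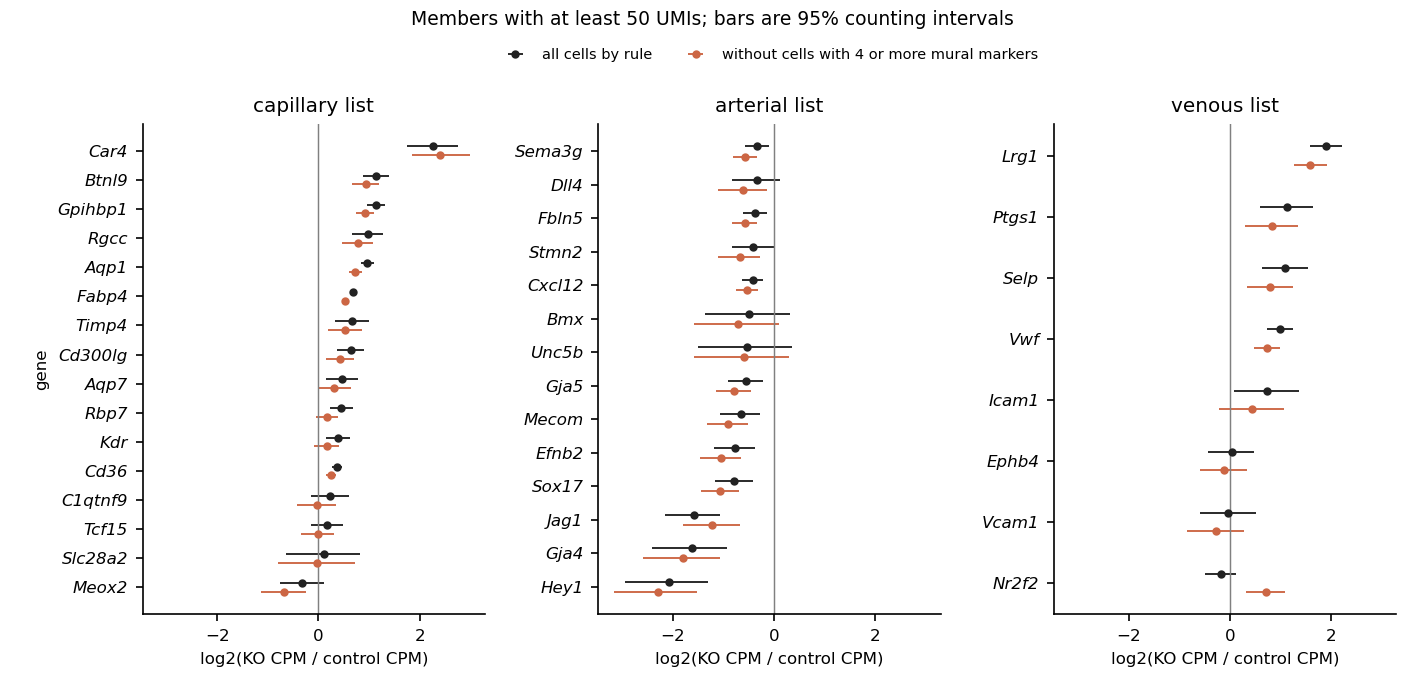
Log2 ratio of KO to control CPM (horizontal axis) for members of the capillary, arterial and venous lists with at least 50 UMIs, with 95% counting intervals, in all cells and without the cells with at least 4 mural markers. All 14 arterial genes lie left of 0, 15 of the 16 capillary genes lie right of it in all cells, and Nr2f2 moves across 0 when the mural cells are left out.

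Genes of fatty acid handling were mostly higher in the KO cells. Of 18 listed genes 13 had at least 50 UMIs, with 9 higher and 1 lower of 13, and the median log2 ratio of the 18 was 0.47. Without the mural cells the counts were 8 higher and 0 lower of 12. The list shares Gpihbp1, Cd36, Fabp4 and Aqp7 with the capillary list. Fabp5 (chromosome 3, 10012548 to 10016607), a fatty acid binding protein gene, gave 309 and 411 UMIs, or 355 and 1147 CPM (1.69, 1.48 to 1.91). Angptl4, which encodes a secreted inhibitor of lipoprotein lipase (chromosome 17, 33773750 to 33781830), was at 193 and 650.1 CPM (1.75, 1.46 to 2.05) and was found in 65 control and 32 KO cells. The nuclear receptor gene Pparg was at 67.7 and 165 CPM (1.28, 0.74 to 1.83). The triglyceride lipase gene Pnpla2 was at 96.4 and 187 CPM (0.95, 0.47 to 1.44) and the monoglyceride lipase gene Mgll at 1048 and 1702 CPM (0.70, 0.55 to 0.85). The intervals of Lpl (0.30, -0.021 to 0.61), Scarb1 (0.078, -0.25 to 0.39) and Lipe (0.47, -0.16 to 1.07) held 0.

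Among the capillary cells alone the log2 ratios were 1.49 for Fabp5, 1.84 for Angptl4, 1.82 for Pparg, 1.32 for Pnpla2 and 0.64 for Mgll. Among the arterial cells the lipid list counted 0 higher and 5 lower of 7, with a median of -0.55. The lower genes were Mgll and the genes shared with the capillary list, Gpihbp1, Cd36, Fabp4 and Aqp7. Of these Gpihbp1 and Aqp7 took part in setting the classes, so this count is not separate from that of the capillary list. In the arterial cells Fabp5 gave 50 and 6 UMIs (-1.20, -2.72 to 0.020) and Angptl4 22 and 7 (0.20, -1.27 to 1.48). In other kinds of cell Angptl4 had a ratio of 0.19 (-0.59 to 0.92) in lymphatic endothelial cells, -0.15 (-0.57 to 0.25) in mural cells and 0.38 (0.28 to 0.48) in fibroblasts. Fabp5 was at 0.67 (0.48 to 0.86) in macrophages and -0.50 (-0.85 to -0.16) in fibroblasts. Fabp4 was at 2.54 (2.05 to 3.03) in lymphatic endothelial cells and -0.85 (-0.93 to -0.76) in mural cells. The ratios thus ran in both directions across the cell types, and the differences between cell types were not tested.

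Promoter sequences of 3 of these genes are shown because they hold the hexamer AGGTCA, to which nuclear receptors such as PPAR gamma, the product of Pparg, bind. RefSeq promoter entries (GRCm38.p6) were matched for 21 of the 30 genes of the lipid handling and capillary lists, with 29 start sites, and the 250 bases before each start were searched for AGGTCA on both strands (TGACCT on the other). It was found in 6 of the 29 windows, from 4 of the 21 genes (Aqp7, Cd36, Pparg and Rxra), and in 14.0% of all 32851 promoter windows. The Aqp7 windows overlap, and the match 223 bases before a start and 49 bases before another is the same, so the 6 windows count it more than once. The difference from the share in all promoters was not tested. A match of letters describes the sequence and is not a binding site. The sequences run 5′ to 3′ on the strand of the gene, with the match in capitals. The Cd36 window is chr5:17835897-17836146 (minus strand), that of Pparg chr6:115360894-115361143 (plus strand) and that of Aqp7 chr4:41047963-41048212 (minus strand).
Cd36: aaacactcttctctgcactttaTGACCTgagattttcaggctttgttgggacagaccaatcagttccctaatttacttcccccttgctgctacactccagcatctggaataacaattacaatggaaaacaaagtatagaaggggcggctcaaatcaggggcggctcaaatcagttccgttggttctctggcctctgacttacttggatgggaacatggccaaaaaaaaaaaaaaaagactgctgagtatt
Pparg: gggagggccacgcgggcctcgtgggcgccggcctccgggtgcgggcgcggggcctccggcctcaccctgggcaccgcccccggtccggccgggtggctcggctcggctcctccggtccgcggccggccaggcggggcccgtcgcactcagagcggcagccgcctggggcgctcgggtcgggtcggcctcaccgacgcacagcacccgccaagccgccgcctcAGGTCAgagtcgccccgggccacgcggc
Aqp7: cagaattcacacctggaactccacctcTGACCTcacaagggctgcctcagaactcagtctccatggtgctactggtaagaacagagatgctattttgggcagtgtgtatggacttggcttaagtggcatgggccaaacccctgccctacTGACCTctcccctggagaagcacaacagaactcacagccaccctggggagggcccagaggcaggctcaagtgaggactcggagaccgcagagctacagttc
The log2 ratios of these genes were 0.37 (0.27 to 0.47) for Cd36, 1.28 (0.74 to 1.83) for Pparg and 0.47 (0.15 to 0.78) for Aqp7. Rxra, which also holds the hexamer before 1 of its starts, was at -0.64 (-1.88 to 0.45).

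Genes of the Notch pathway, which keeps arterial identity, were lower or had intervals that held 0. Of 12 listed genes 10 had at least 50 UMIs, with 0 higher and 5 lower of 10, and without the mural cells 0 higher and 8 lower of 10. The median log2 ratio of the 12 was -0.54. Among the capillary cells alone the list counted 0 higher and 0 lower of 6, with a median of -0.37. Among the arterial cells it counted 0 higher and 3 lower of 8, with a median of -0.24. Hey1 and Jag1 are also in the arterial list and took part in setting the classes. Besides Hey1 and Jag1, the target gene Hes1 was at 411 and 279 CPM (-0.56, -0.89 to -0.24), the feedback inhibitor gene Nrarp at 233 and 162 CPM (-0.53, -0.97 to -0.10) and Rbpj, the transcription factor of the pathway, at 95.3 and 39.1 CPM (-1.29, -2.22 to -0.46). The receptor genes Notch1 (-0.26, -0.60 to 0.073) and Notch4 (-0.19, -0.69 to 0.29) had intervals that held 0, as did the ligand genes Dll1 (-0.29, -0.77 to 0.18) and Jag2 (0.58, -0.14 to 1.28). Heyl, with 41 and 3 UMIs, was held mainly by the cells with mural genes and gave 1 and 0 without them. Hes1 had a ratio of 0.67 (0.31 to 1.02) in lymphatic endothelial cells and -0.22 (-0.61 to 0.15) in mural cells. Hey1 was lower in lymphatic endothelial cells too (30 and 1 UMIs; -3.08, -8.43 to -0.49), and gave 22 and 0 UMIs in mural cells. The intervals of Jag1 held 0 in lymphatic endothelial (0.24, -1.24 to 1.53) and mural cells (-0.14, -0.59 to 0.29).

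Klf4 and Klf2, transcription factor genes induced by blood flow, were lower. Klf4 was at 1149 and 767 CPM (-0.58, -0.78 to -0.39) and Klf2 at 1348 and 1122 CPM (-0.27, -0.43 to -0.10), while in lymphatic endothelial cells their ratios were 0.78 (0.45 to 1.1) and 1.90 (1.47 to 2.34) and in mural cells 1.5 (0.66 to 2.28) and 1.71 (1.01 to 2.38). Of the 18 listed factors 17 had at least 50 UMIs, with 2 higher and 6 lower of 17, and without the mural cells 1 higher and 10 lower of 17. The ETS factor genes Erg (0.20, -0.26 to 0.65) and Fli1 (0.019, -0.32 to 0.35) had intervals that held 0. Sox18 (-0.43, -0.71 to -0.16), Mecom (-0.66, -1.07 to -0.27) and the hypoxia factor gene Epas1 (-0.31, -0.48 to -0.15) were lower, and Ets1 (0.33, 0.033 to 0.62) and Sox7 (0.64, 0.12 to 1.15) higher. Vasoactive genes counted 2 higher and 1 lower of 10, and without the mural cells 2 higher and 2 lower of 10. Edn1, which encodes the vasoconstrictor endothelin 1, was at 289 and 139.5 CPM (-1.05, -1.52 to -0.61), the endothelin receptor gene Ednrb at 144 and 237 CPM (0.72, 0.31 to 1.13), and the nitric oxide synthase gene Nos3 at 129.7 and 126 CPM (-0.047, -0.58 to 0.46).

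Angiogenic receptor and junction genes were more often higher in all cells than without the mural cells. Leaving out Flt1, a selection gene, the receptor genes counted 6 higher and 1 lower of 15, but without the mural cells 2 higher and 3 lower of 15, and the median moved from 0.11 to -0.13. Nrp2 was at 191 and 419 CPM (1.13, 0.81 to 1.46), the VEGF receptor gene Kdr at 466 and 611 CPM (0.39, 0.15 to 0.63) and the sphingosine phosphate receptor gene S1pr1 at 558 and 764 CPM (0.45, 0.24 to 0.67). Among the capillary cells alone Nrp2 was at 370 and 485 CPM, S1pr1 had a ratio of 0.48 (0.17 to 0.80) and the ratio of Kdr changed sign. Leaving out the selection genes Cdh5 and Pecam1, the junction genes counted 5 higher and 1 lower of 10, the claudin gene Cldn5 (0.39, 0.23 to 0.55) among the higher ones, and without the mural cells 1 higher and 1 lower of 10, with medians of 0.29 and 0.066. Caveolar genes counted 3 higher and 2 lower of 9, and without the mural cells 2 higher and 3 lower of 9, with Cav1 at 0.009 (-0.14 to 0.15) and Plvap, which forms the diaphragms of fenestrae and caveolae, at 0.63 (0.42 to 0.84). Genes of the angiogenic tip cell counted 0 higher and 2 lower of 6, and without the mural cells 0 higher and 3 lower of 6, with the growth factor gene Pdgfb at -0.44 (-0.82 to -0.082). Leukocyte adhesion genes counted 4 higher and 1 lower of 7, and without the mural cells 2 higher and 1 lower of 7, with the interferon-induced chemokine gene Cxcl9 at 71.2 and 153 CPM (1.11, 0.56 to 1.66).

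Among genes with at least 50 UMIs the highest ratio was that of Cdkn1a, which encodes the cell cycle inhibitor p21 (chromosome 17, 29090976 to 29100727). It gave 41 and 164 UMIs, or 47.1 and 458 CPM (3.28, 2.78 to 3.81), and a ratio of 2.98 (2.48 to 3.51) without the mural cells. UMIs of Cdkn1a were held by 25 control and 29 KO cells, and at 2000 UMIs per cell, without the mural cells, in 9 of 101 control cells (8.91%, 4.16% to 16.2%) and 18 of 41 KO cells (43.9%, 28.5% to 60.3%). Its ratio was 3.01 in the capillary and 3.50 in the arterial cells. In other cells it was 3.63 (1.96 to 5.69) in lymphatic endothelial cells, 4.07 (2.78 to 5.49) in mural cells, 0.94 (0.68 to 1.19) in fibroblasts, 0.79 (0.62 to 0.95) in macrophages and -0.72 (-1.53 to 0.032) in lymphocytes. The lymphatic and mural values rest on few UMIs, 4 and 14 in the first and 8 and 17 in the second. Of 15 cell cycle genes 1 had at least 50 UMIs, Pcna (0.25, -0.52 to 0.98).

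Other genes of the highest 10 were Tmem252 (2.65, 2.09 to 3.23), the retinoic acid hydroxylase gene Cyp26b1 (2.28, 1.43 to 3.18), Car4, the desaturase gene Scd1 (1.99, 1.12 to 2.89), Lrg1, Lnx1 (1.77, 1.02 to 2.54), Angptl4 and Fabp5. Tmem252 was found in 20 control and 18 KO cells, and it gave 0 UMIs in the lymphatic endothelial cells and macrophages of both libraries. Without the mural cells Cpe and Ccdc85a were among the highest 10, and Scd1 was not.

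The lower end was led by genes of other cell types. The first 10 were Retnla (150 and 2 UMIs), Ccl9 (89 and 1), Postn (259 and 9), Ccl6 (77 and 2), Rgs4 (73 and 1), Steap4 (91 and 4), Mfap5 (66 and 3), Lmod1 (63 and 3), Gpc6 (144 and 7) and Col5a3 (61 and 3). Retnla, Ccl9 and Ccl6 are macrophage genes, and single control cells held 57, 78 and 64 of their UMIs. Retnla had a ratio of -0.79 (-0.81 to -0.76) in macrophages, -2.52 (-2.96 to -2.11) in fibroblasts and -2.94 (-3.62 to -2.33) in lymphocytes. Without the mural cells the lower end was led by Retnla, Ccl9, Ccl6, Lyz2, Ccr2 (52 of 54 control UMIs in 1 cell), Enpp2 (42 of 50 in 1 cell), Rnf152 (-3.02, -5.35 to -1.39), the growth factor gene Tgfb2 (-2.78, -4.45 to -1.49), Zeb2 (-2.31, -4.00 to -0.99) and Hey1 (-2.29, -3.17 to -1.52). Single control cells also held 61 of 105 control UMIs of Lyz2 and 30 of 49 of Zeb2. Igfbp3, an insulin-like growth factor binding protein gene, was at 609 and 162 CPM (-1.91, -2.33 to -1.52), with 114 of 530 control UMIs in 1 cell, and at -3.73 in the capillary and -1.02 in the arterial cells.

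**Figure D4:**
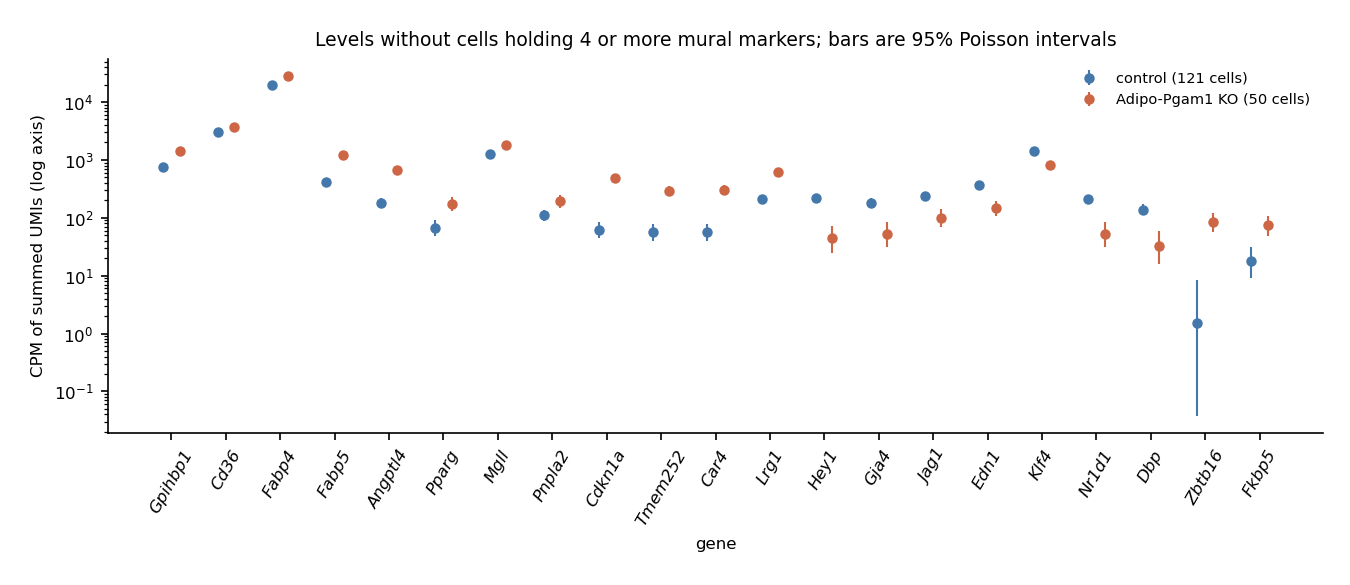
Level of 21 genes in CPM of summed UMIs (log axis) in 121 control and 50 KO cells, without the cells with at least 4 mural markers, with 95% Poisson intervals. Gpihbp1, Car4, Fabp5, Angptl4 and Cdkn1a are higher in the KO cells, and Hey1, Gja4, Jag1, Nr1d1 and Dbp lower.

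Clock output genes were lower. Of 19 listed clock and glucocorticoid response genes 10 had at least 50 UMIs, with 2 higher and 6 lower of 10, and without the mural cells 1 higher and 5 lower of 9. The clock repressor gene Nr1d1 was at 231 and 50.2 CPM (-2.20, -2.98 to -1.50) and Dbp at 145 and 30.7 CPM (-2.24, -3.28 to -1.35), followed by Per3 (-1.47, -2.76 to -0.39), Nr1d2 (-1.32, -2.12 to -0.59), Tef (-1.13, -1.89 to -0.43) and Cry2 (-1.02, -2.0 to -0.14). Of glucocorticoid response genes Tsc22d3 (0.69, 0.23 to 1.14) and Sgk1 (0.61, 0.27 to 0.94) were higher. Zbtb16 gave 6 and 32 UMIs (3.70, 2.42 to 5.24) and the cochaperone gene Fkbp5 12 and 25 (2.34, 1.29 to 3.47), both under the minimum of 50. Nr1d1 was lower in several other kinds of cell, with a ratio of -2.93 (-3.37 to -2.53) in fibroblasts, -1.56 (-2.30 to -0.90) in mural cells and -3.81 (-5.70 to -2.44) in macrophages. In lymphocytes the intervals of Nr1d1, at -0.77 (-1.63 to 0.019), and Dbp, at -0.27 (-1.02 to 0.44), held 0. The time of day of tissue collection is not given in the sources used here.

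Immediate early and chaperone genes, which can respond to tissue digestion, were measured as signs of handling. Of 15 immediate early genes the counts were 8 higher and 3 lower of 15, and without the mural cells 6 higher and 3 lower of 14, with Fos at 738 and 1236 CPM (0.74, 0.57 to 0.92), Egr1 at 501 and 784 CPM (0.65, 0.43 to 0.87), Atf3 at 28.7 and 78.1 CPM (1.44, 0.61 to 2.28) and Socs3 at 55.1 and 128 CPM (1.22, 0.60 to 1.83). Nr4a1 (-0.66, -1.24 to -0.11), Dusp1 (-0.34, -0.56 to -0.13) and Klf6 (-0.37, -0.64 to -0.11) were lower. Among the capillary cells the list counted 9 higher and 0 lower of 13 and among the arterial cells 1 higher and 8 lower of 12. Chaperone genes counted 4 higher and 0 lower of 9, and without the mural cells 4 higher and 0 lower of 7, among them Hspb1 at 421 and 672 CPM (0.67, 0.43 to 0.91). Interferon-induced genes counted 2 higher and 5 lower of 13, and without the mural cells 1 higher and 7 lower of 12, with Isg15 at 131 and 61.4 CPM (-1.09, -1.82 to -0.42), Ifit1 lower (-1.33, -2.62 to -0.24) and Ifitm2 higher (0.51, 0.33 to 0.69). The part of these genes in the other results was not tested.

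Few genes of energy metabolism differed beyond their intervals. Glycolytic genes counted 2 higher and 0 lower of 11, and without the mural cells 1 higher and 0 lower of 10, the higher genes being Gapdh at 313 and 483 CPM (0.62, 0.34 to 0.90) and Ldha at 162 and 239.9 CPM (0.57, 0.16 to 0.96), with a median of 0.21. Respiratory chain genes counted 2 higher and 0 lower of 18, and without the mural cells 1 higher and 0 lower of 18, with Cycs (0.67, 0.18 to 1.15) among the higher genes and a median of 0.067. Basement membrane genes counted 0 higher and 3 lower of 13, and without the mural cells 1 higher and 1 lower of 13, and Sparc was at -0.16 (-0.26 to -0.058) in all cells and 0.33 (0.21 to 0.45) without the mural cells. MHC class I genes counted 2 higher and 1 lower of 10, and without the mural cells 0 higher and 2 lower of 10, MHC class II genes 0 higher and 1 lower of 2 and haemostasis genes 1 higher and 2 lower of 7, and without the mural cells 1 higher and 2 lower of 6. Procr, the endothelial protein C receptor gene, was at 238 and 69.8 CPM (-1.77, -2.43 to -1.17) in all cells, but its interval held 0 without the mural cells (-0.21, -1.23 to 0.74).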

How the data were processed

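Droplet single-cell RNA libraries of gWAT SVF, 1 from control and 1 from Adipo-Pgam1 KO mice, were analysed. The deposited files held raw UMI counts per gene and barcode, made by the authors with Cell Ranger 3.0.1 on build mm10. The submitters' processing notes also name Seurat 3.1.5 and R 4.0.1. The matrices listed 28692 gene identifiers, of which 28339 matched a GENCODE annotation of GRCm38 used for coordinates. The control held 8522 barcodes and 42859406 UMIs, the KO 2730 barcodes and 13821581 UMIs.

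UMIs of the selected cells were summed per library and divided by their total (CPM). Levels carry exact Poisson, shares exact Clopper-Pearson and ratios exact conditional binomial intervals, all at 95%, which cover counting error only. A count of 0 was set to 3 UMIs for a ratio, and in the rankings of genes between sets of cells counts of 1 and 2 were as well. Genes were counted from 50 UMIs over both libraries, and list medians took members from 10. With 1 library per group no test was made, since cells are not replicates. Other cell kinds were chosen by marker rules. No doublet caller was run, and cells with UMIs of at least 2 mural, macrophage or lymphocyte markers were left out as an alternative. Further alternatives were other cell limits, edgeR 4.0.16 and DESeq2 1.42.0 scaling factors, totals without haemoglobin and mitochondrial genes, mean CPM per cell, thinning to 2000 UMIs, other UMI minimums, and leaving out the 5 cells with most UMIs per library. The intervals were checked on simulated Poisson counts, the model that they assume, so the check cannot show how they cover spread between cells. Python 3.11.15, scipy 1.17.1 and R 4.3.3 were used.

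The cells and gene lists were chosen with earlier results of these data known. Genes were named by rule: the markers, Pgam1 and Pgam2, per list up to 6 called members with the largest ratios and up to 6 with the highest control level, the 10 largest ratios at each end, the 20 leading genes, and the 10 at each end of the arterial rankings. Other list members and Igfbp3 as a lower gene were named after their values were seen. Some items that the rule would name are not reported here.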

Additional observations from a re-analysis of the deposited data

Results flagged for a closer look

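Of 128 list genes with at least 50 UMIs in each class, 13 had log2 ratios of KO to control with opposite signs in capillary and arterial cells and both intervals clear of 0. The cell classes were set after the data were seen, and the difference between classes was not tested. Of capillary and lipid genes these were Gpihbp1 (0.89 in capillary and -1.44 in arterial cells), Cd36 (0.26 in capillary and -0.91 in arterial cells), Fabp4 (0.59 in capillary and -0.81 in arterial cells) and Btnl9 (1.57 in capillary and -1.75 in arterial cells). Rbp7 was at 1.44 in capillary and -3.10 in arterial cells, where 1 control cell held 77 of 310 UMIs. All 11 arterial KO UMIs of Gpihbp1 lay in 1 cell. Gpihbp1, Rbp7 and Btnl9 were among the genes that set the classes. Of immediate early genes they were Fosb (0.73 in capillary and -0.97 in arterial cells), Jun (0.53 in capillary and -0.46 in arterial cells), Junb (0.53 in capillary and -0.81 in arterial cells), Jund (0.58 in capillary and -0.59 in arterial cells) and Ier2 (0.74 in capillary and -0.90 in arterial cells). The others were Mgll (0.64 in capillary and -0.68 in arterial cells), Epas1 (-0.58 in capillary and 0.37 in arterial cells) and Ndufa4 (-0.53 in capillary and 0.76 in arterial cells). The arterial values rest on 14 KO cells. The number of such genes among all genes was not counted, so the 13 cannot be set against a background. Over all genes counted in each class, intervals lay above 0 for 7.39% and below 0 for 11.8% in capillary cells. In arterial cells these shares were 6.63% and 12.3%.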

How the results depend on the processing

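The medians of the capillary, arterial and venous lists kept their signs under the alternatives run. The class of arterial cells was not among these, and there the capillary median was -0.91. Of the planned values for these medians, the shares and the gene counts, 108 stayed within their counting interval or, for a count of genes, within 1.5 times, and 28 moved. The control share moved from 3.66% to 2.38% with at most 5% mitochondrial UMIs, 4.36% with at most 20%, 2.94% with at least 8 UMIs of the selection genes, 1.60% without any Dcn and 2.42% without cells holding markers of another class, and the KO share to 3.03% without any Dcn. The number of genes at least 2-fold higher, 75, and lower, 254, became 45 and 149 with at most 5% mitochondrial UMIs, 47 and 112 without Dcn, 29 and 86 without other markers, 29 and 93 after thinning, 217 and 765 from 20 UMIs and 538 and 908 from 1 UMI. The higher count was 42 with at least 8 selection UMIs, and the lower count 383 with mean CPM per cell. With 2 alternatives added after the data were seen the counts were 45 and 147 without cells with mural genes and 41 and 62 in capillary cells. The arterial median was -2.09 with at most 5% mitochondrial UMIs. The share of cells with at least 2 arterial genes was 74.6% and 71.4% after thinning and 84.3% in the KO with at least 3. The venous share was 41.0% and 40.5% after thinning, and in the control 43.5% without Dcn and 34.5% with at least 3. Of the 119 genes recomputed, those whose interval was clear of 0 and whose ratio changed sign were with at most 5% mitochondrial UMIs Rbp7 (-0.077), Ccl6 (0.50), Steap4 (0.011), Cldn5 (-0.32), Cxcl12 (0.037), Cxcl9 (-0.047), Cycs (-0.23), S1pr1 (-0.034), Sox7 (-0.023) and Sparc (0.19), with at least 8 selection UMIs Sparc (0.13), without Dcn Rbp7 (-0.60), Ednrb (-0.36) and Sparc (0.075), without other markers Selp (-0.60), Cldn5 (-0.030), Aqp7 (-0.027), Socs3 (-0.17) and Sparc (0.31), after thinning Sox7 (-1.01) and Sparc (0.26), as mean CPM per cell Sparc (0.18), without cells with mural genes Sparc (0.33), in capillary cells Plvap (-0.32), Dusp1 (0.062), Kdr (-0.11), Klf6 (0.018), Nr4a1 (0.20), Sema3g (0.12), Sparc (0.20) and Stmn2 (1.08). Nr2f2, whose interval held 0 in all cells, turned to 0.43, 0.22 and 0.35 with at most 5% mitochondrial UMIs, at least 8 selection UMIs and no Dcn, and to 0.71 without the mural cells. The cause was not tested. No replicate could be left out, and no paired analysis was possible because there was 1 library per group. Depth limits the KO side, where 51 cells held 358422 UMIs.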
